A study of Mus musculus with 5 samples.

Results

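The genes described here make, convert or sense leukotrienes and prostaglandins: Alox5, Alox5ap, Alox12, Alox15, Lta4h, Ltc4s, Cysltr1, Ptgs1, Ptgs2 and Ptgds. They were chosen by name, as the probes of the array whose platform gene symbol, current or older, is one of these 10 genes. The rule used no measured value, but the genes were listed with earlier results of these data known. All 10 of the 16637 genes named on the array were found, on 12 of its 29922 probes, with 2 probes each for Ptgs1 and Ptgs2 and 1 probe for each of the other members. Liver RNA was measured on 5 single-colour arrays, 1 per group. The groups were wild-type (WT) C57BL/6 mice on a high-fat diet to which nordihydroguaiaretic acid (NDGA) was added (2.5 g in each kg of food), WT mice on the high-fat diet alone, ob/ob mice on chow with NDGA at the same dose, ob/ob mice on chow alone, and WT mice on chow. The ob/ob mice carry the obese mutation in the leptin gene and are labelled as C57BL/6 in background. All groups stayed on their diets for 16 weeks, and RNA of 3 animals was used in each; the sources used here do not say whether it was pooled. With 1 array per group there is no replicate error, no test and no p-value, and every difference below is between 2 arrays.

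Arachidonic acid, freed from membranes by phospholipases A2, is oxidised by lipoxygenases or by cyclooxygenases. Alox5 encodes 5-lipoxygenase, which needs the membrane protein encoded by Alox5ap (FLAP) to make leukotriene A4 in cells; Lta4h turns that into leukotriene B4 and Ltc4s couples it to glutathione to give leukotriene C4, whose products are sensed by the receptor encoded by Cysltr1. Alox12 encodes the platelet-type 12-lipoxygenase and Alox15 the leukocyte-type enzyme, while Ptgs1 and Ptgs2 encode the constitutive and the inducible cyclooxygenase and Ptgds a prostaglandin D synthase. Most of these genes are known from leukocytes, macrophages and platelets rather than from hepatocytes, and NDGA is a plant lignan that inhibits lipoxygenase enzymes. The arrays measured RNA, not the activity of these enzymes.

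In whole liver, Alox5ap was the member that stood clear of background on all 5 arrays, and it was higher in both kinds of obese liver than in lean liver. Of the lipoxygenase genes, Alox5 and Alox12 lay close to background and Alox15 lay within it. None of the 10 members was 2-fold apart in any of the 4 comparisons, beside 1.32% to 4.05% of all named genes.

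Background was judged from 703 probes for olfactory receptors, genes that liver is not known to use. On the deposited intensity scale, which is linear in arbitrary units, 90% of these probes lay at or below 319 on the WT high-fat NDGA array, 204 on WT high-fat diet, 271 on ob/ob chow with NDGA, 220 on ob/ob chow and 264 on WT chow, and a member at or below that level is called near background on that array. By this measure 6 members were near background on all 5 arrays (Alox15, Lta4h, Ltc4s, Ptgs1, Ptgs2 and Ptgds), 3 were above it on some arrays (Alox5, Alox12 and Cysltr1), and only Alox5ap was above it on all 5. With the 75th percentile of the same probes in place of the 90th, Alox5, Alox12, Ltc4s and Cysltr1 joined Alox5ap above background on all 5 arrays. With the 95th percentile no member was above it on all 5, and Alox5ap was above it on 3.

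**Figure D1:**
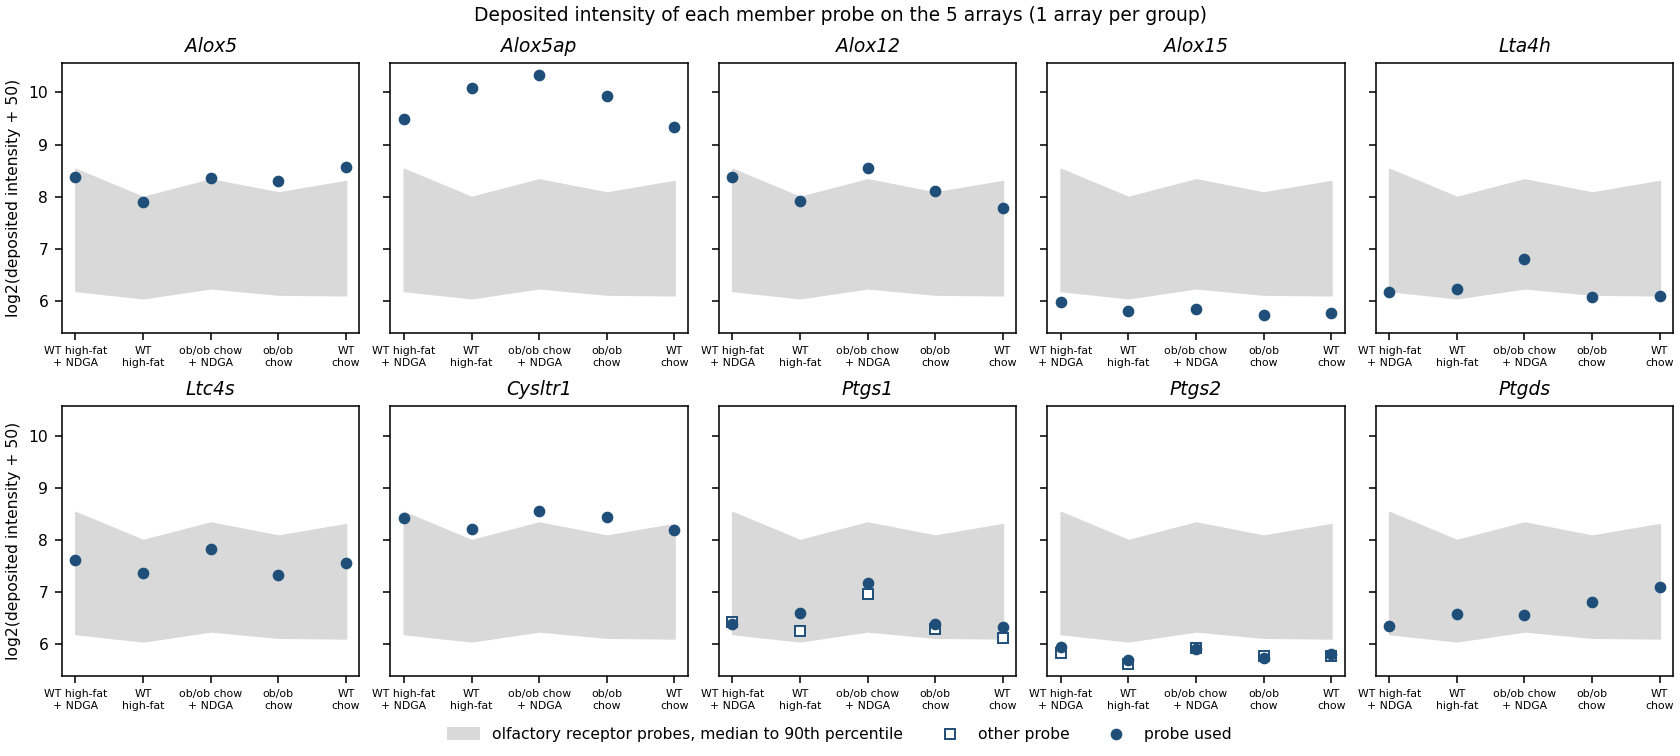
Deposited intensity of each member, as log2(intensity + 50), on the 5 arrays, with 1 array per group along the x axis; filled points are the probe used, open squares the second probe of Ptgs1 and Ptgs2, and the grey area runs from the median to the 90th percentile of 703 olfactory receptor probes. Alox5ap lies above the grey area on all 5 arrays, Alox5, Alox12 and Cysltr1 lie around its upper edge, and the other members lie in or under it.

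The median deposited intensity of the arrays was 47.0 for WT high-fat NDGA, 39.6 for WT high-fat diet, 71.0 for ob/ob chow with NDGA, 38.1 for ob/ob chow and 38.8 for WT chow. Because the ob/ob NDGA array ran brighter, all arrays were quantile normalized, and levels and differences are given as log2(normalized intensity + 50), a scale that understates the change of dim genes. A gene is called above the median gene when its mean level over the 5 arrays is at or above the median of all named genes; this held for 5 members, Alox5, Alox5ap, Alox12, Ltc4s and Cysltr1. As a yardstick in place of replicates, the SD per probe was taken from genes with 2 probes above the median gene. It was 0.34 for NDGA in WT, 0.47 for NDGA in ob/ob, 0.35 for high-fat diet and 0.29 for ob/ob against WT on the log2 scale, from 828 to 842 genes. This SD covers disagreement between probes and leaves out the spread between mice. As a check of the tissue, 6 of 7 hepatocyte markers were above background on every array, and Tat was near background. Alb, which encodes albumin, lay between 15.95 and 16.01 on the normalized log2 scale, at its upper end. Its intensities of 62274 to 65764 were at or close to the limit of 65000, so its steadiness is not read as a result. The other markers above background spanned from 0.35 (Apoa1) to 1.715 (Cps1) in normalized log2 level.

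Alox5, the 5-lipoxygenase gene, read intensities of 284 on WT high-fat NDGA, 189 on WT high-fat diet, 277 on ob/ob chow with NDGA, 265 on ob/ob chow and 330 on WT chow. The WT high-fat array was the lowest and WT chow the highest of the deposited values, and the probe was near background on both high-fat arrays. The log2 difference was -0.68 for high-fat diet against chow, which is 1.60-fold lower. It was 0.39 for NDGA on the high-fat diet, so the array with NDGA lay between those of high-fat diet alone and chow. In ob/ob mice it was -0.10 against WT and -0.67 with NDGA against without. The ob/ob NDGA value depended on scaling. It was -0.41 with each array centred on its median, -0.47 after loess and 0.05 without normalization. Olfactory receptor probes of similar brightness (mean normalized intensity of 100 to 500, a range chosen after the values were seen) moved the same way in 3 of these comparisons, with medians of -0.29 with high-fat feeding, 0.44 with NDGA in WT and -0.38 for NDGA in ob/ob. Alox5 lay inside the range that held the central 80% of those probes for both NDGA comparisons (0.0047 to 0.74 in WT and -0.72 to -0.11 in ob/ob) and just below it for high-fat diet (-0.61 to 0.10). The part of such a shift in the Alox5 values was not tested.

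Alox5ap, which encodes the protein that presents arachidonic acid to 5-lipoxygenase, read 673 on WT high-fat NDGA, 1037 on WT high-fat diet, 1235 on ob/ob chow with NDGA, 924 on ob/ob chow and 593 on WT chow. WT chow was the lowest array and ob/ob chow with NDGA the highest before normalization. After normalization the order of log2 levels was 10.30 on ob/ob chow, 10.21 on WT high-fat diet, 9.80 on ob/ob chow with NDGA, 9.55 on WT high-fat NDGA and 9.46 on WT chow. The upper neighbours, ob/ob chow and WT high-fat diet, were 0.09 apart, and the lower neighbours, WT high-fat NDGA and WT chow, were also 0.09 apart; both gaps are well under the smallest SD between probes. Between 94.5% and 98.3% of the olfactory receptor probes lay below Alox5ap on each array.

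Alox5ap was 1.68-fold higher on high-fat diet than on chow (log2 difference 0.75) and 1.79-fold higher in ob/ob than in WT mice (0.84). Of the 8319 genes above the median gene in each comparison, 5.76% and 1.55% were at least as far up. With NDGA on the high-fat diet it was 1.58-fold lower (-0.66), and 7.0% of genes were at least as far down. These 3 differences exceeded the SD between probes and kept their direction under all 8 alternatives, with ranges of 0.64 to 0.80, 0.60 to 0.87 and -0.70 to -0.57. With NDGA in ob/ob mice the difference was -0.50, about as large as the SD between probes there, and 17.0% of genes were at least as far down. That value was 0.40 without normalization, -0.06 with each array centred on its median and -0.27 after loess, so no direction is given for Alox5ap with NDGA in ob/ob liver.

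Alox12, the platelet-type 12-lipoxygenase gene, read 283 on WT high-fat NDGA, 191 on WT high-fat diet, 326 on ob/ob chow with NDGA, 228 on ob/ob chow and 170 on WT chow. Alox12 exceeded the olfactory receptor level on the 2 ob/ob arrays only, and was lowest on WT chow. The log2 difference was 0.52 for ob/ob against WT on chow, above the SD between probes and above the 0.33 that bounded the highest 10% of olfactory receptor probes of similar brightness. For NDGA on the high-fat diet it was 0.37, inside the olfactory receptor range, and for high-fat diet it was 0.16. For NDGA in ob/ob it was -0.28, or 0.44 without normalization.

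Alox15, the leukocyte-type lipoxygenase gene, read 12.9 on WT high-fat NDGA, 6.24 on WT high-fat diet, 7.35 on ob/ob chow with NDGA, 2.91 on ob/ob chow and 4.27 on WT chow. From 6.54% to 37.0% of the olfactory receptor probes lay below it, so all 5 readings were within background and no fold is given. Alox15 RNA could not be told from background in whole liver with this probe.

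Among the leukotriene enzymes, Lta4h read 22.4 on WT high-fat NDGA, 24.7 on WT high-fat diet, 61.0 on ob/ob chow with NDGA, 17.1 on ob/ob chow and 18.0 on WT chow. All 5 values were near background; the ob/ob NDGA array, the brightest array, gave the highest, and no fold is given. Ltc4s read 145 on WT high-fat NDGA, 114 on WT high-fat diet, 176 on ob/ob chow with NDGA, 110 on ob/ob chow and 138 on WT chow. It was the steadiest of the members above the median gene, with a range of 0.21 in normalized log2 level over the 5 arrays. Its differences ran from -0.19 to 0.15 over the 4 comparisons, all inside the SD between probes.

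Cysltr1, the receptor for cysteinyl leukotrienes, read 293 on WT high-fat NDGA, 244 on WT high-fat diet, 326 on ob/ob chow with NDGA, 298 on ob/ob chow and 241 on WT chow. It was near background on WT high-fat NDGA and WT chow and above it on the other 3 arrays. High-fat diet and NDGA on the high-fat diet gave differences of 0.03 and 0.12, inside the SD between probes. For ob/ob against WT it was 0.45, again above the olfactory receptor bound of 0.33, and 0.26 without normalization, which is under the SD between probes. For NDGA in ob/ob it was -0.64 after quantile normalization, -0.35 with median centring and -0.43 after loess, both inside the SD between probes. It was 0.11 without normalization, the only setting in which its sign there changed.

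On the prostaglandin side, none of the members was clear of background. The brighter probe of Ptgs1, the constitutive cyclooxygenase, read 33.6 on WT high-fat NDGA, 47.1 on WT high-fat diet, 94.3 on ob/ob chow with NDGA, 33.4 on ob/ob chow and 30.2 on WT chow, and its second probe read between 19.0 and 74.0, also highest on ob/ob chow with NDGA. Ptgs2, the inducible cyclooxygenase, read between 1.64 and 11.2 on one probe and between -0.73 and 10.9 on the other, which places both at the floor of every array. Ptgs2 was thus within background on the arrays of high-fat-fed and ob/ob mice as well.

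Ptgds, a prostaglandin D synthase best known from brain, read 31.4 on WT high-fat NDGA, 45.9 on WT high-fat diet, 44.0 on ob/ob chow with NDGA, 61.6 on ob/ob chow and 86.5 on WT chow. All 5 values were near background, and WT chow was the highest. Its log2 differences were below 0 in all 4 comparisons, at -0.36 for NDGA in WT, -0.67 for NDGA in ob/ob, -0.49 for high-fat diet and -0.20 for ob/ob against WT; the ob/ob NDGA value was -0.25 without normalization. The 2 NDGA arrays were lower than their partners without NDGA, but at these intensities the values lie within the spread of probes without a liver target.

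**Figure D2:**
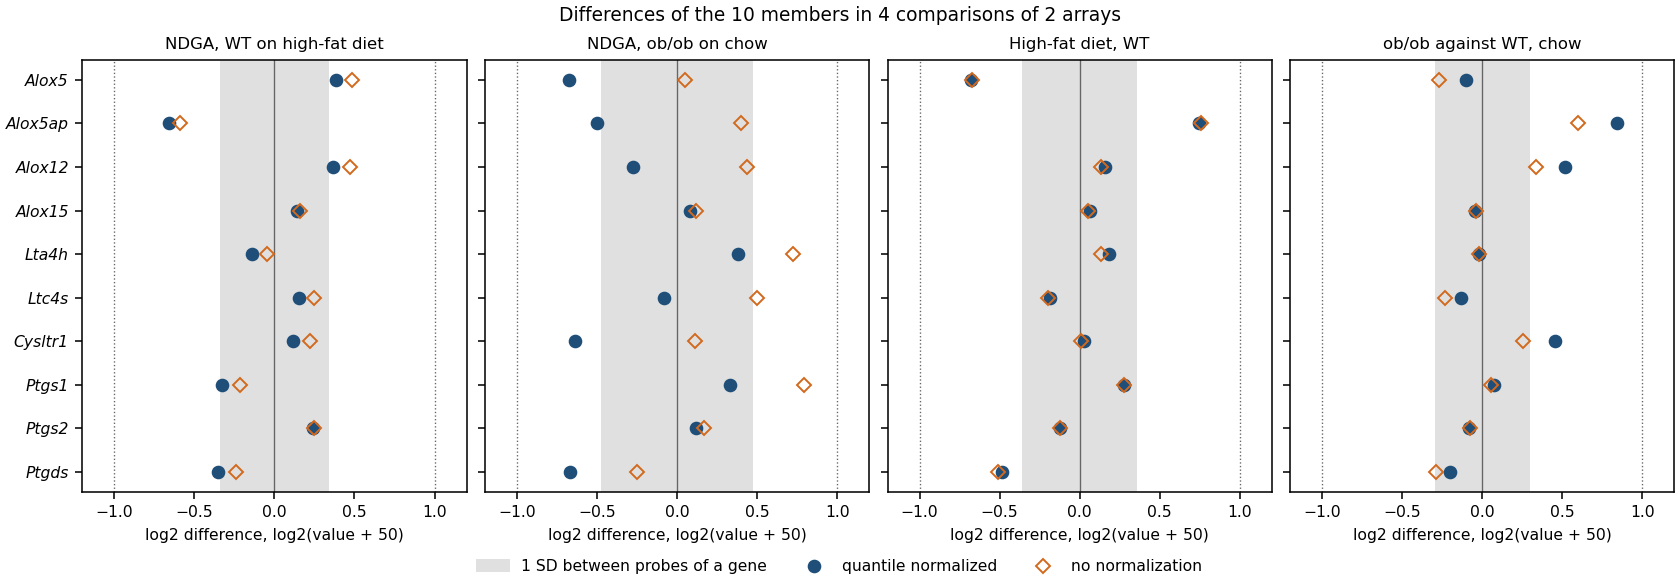
Log2 differences of the 10 members in 4 comparisons of 2 arrays each, on the log2(value + 50) scale, after quantile normalization (filled) and on the deposited values (open diamonds); the grey band is 1 SD between probes of a gene and dotted lines mark 2-fold. No member reaches 2-fold, Alox5ap is the only one outside the band in all 4 comparisons after normalization, and the 2 settings part for NDGA in ob/ob, where Alox5ap was at -0.50 and 0.40.

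NDGA on the high-fat diet against the high-fat diet alone asks what NDGA did in diet-obese liver. Alox5ap was lower (-0.66) and Alox5 and Alox12 were slightly higher (0.39 and 0.37), while 2 members in all were higher and 2 lower by more than the SD between probes; the second lower one was Ptgds, near background. Past that SD were 14.1% of all named genes higher and 15.6% lower, or 22.8% and 24.2% of those above the median gene, so the members' counts lie near the background. The median of the 10 members was 0.13, against -0.0096 for all named genes. Past 2-fold were 0 of 10 members, beside 2.48% of the genes above the median gene and 1.32% of all named genes. At these shares, a count of 0 among 10 says nothing particular about the members.

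NDGA in ob/ob mice on chow asks the same in leptin-deficient liver. After quantile normalization 4 members were lower by more than the SD between probes (Alox5, Alox5ap, Cysltr1 and Ptgds) and 0 were higher. Past that SD were 11.0% of all named genes lower and 13.9% higher, or 19.6% and 21.4% of those above the median gene. The median of the members was -0.18, against -0.02 for all named genes. On the deposited values 9 of the 10 members were above 0, with a member median of 0.28, against 0.36 for all named genes. Without normalization Alox5, Alox5ap, Alox12, Ltc4s and Cysltr1 thus changed sign, and the other members kept theirs. Alox15 and Ptgs2, both within background, changed sign with median centring. Past 2-fold were 0 of 10 members, beside 7.27% of genes above the median gene and 4.05% of all named genes; with an offset of 16 in place of 50, Ptgds reached -1.03.

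The high-fat diet and chow arrays of WT mice bear on obesity from diet. Alox5ap was higher (0.75), and Alox5 (-0.68) and Ptgds (-0.49) were lower, by more than the SD between probes. The other 7 members lay inside it. Past that SD were 13.3% of all named genes higher and 10.7% lower, or 21.2% and 18.1% of those above the median gene. The median of the members was 0.05, against -0.0031 for all named genes, and 0 of 10 were past 2-fold, beside 3.49% of genes above the median gene and 1.86% of all named genes.

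The ob/ob against WT comparison on chow asks what genetic obesity did. Alox5ap (0.84), Alox12 (0.52) and Cysltr1 (0.45) were higher by more than the SD between probes and 0 members were lower. Past that SD were 10.3% of all named genes higher and 8.49% lower, or 15.5% and 12.4% of those above the median gene. Without normalization the 3 values were 0.60, 0.34 and 0.26. The median of the members was -0.03, against 0.01 for all named genes, and 0 of 10 were past 2-fold, beside 2.85% of genes above the median gene and 1.58% of all named genes. The high-fat and ob/ob comparisons share the WT chow array, so their shared direction for Alox5ap rests in part on that 1 array. Likewise, the rise of Alox5ap with high-fat diet and its lower level with NDGA in WT share the WT high-fat array.

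Macrophages are a known site of Alox5ap expression, and the median of macrophage markers moved with it in 3 of the 4 comparisons. These 3 are not independent. The high-fat diet and NDGA comparisons in WT share the WT high-fat array with opposite sign. A high reading on it raises the first difference and lowers the second. The high-fat diet and ob/ob comparisons share the WT chow array. All 15 macrophage and Kupffer cell markers were on the array and 12 were above the median gene. The median difference of these 12 was 0.78 for high-fat diet, where 5 of the 15 were at least 2-fold higher and 0 lower, beside 1.16% of all named genes higher and 0.697% lower. With high-fat diet 11 of the 12 were above 0 and 1 was below. Clec4f (0.06), Vsig4 (0.04) and Timd4 (-0.13) lay inside the SD between probes there. The median of the 12 was -0.88 with NDGA on the high-fat diet, where 5 were lower and 0 higher, beside 0.829% lower. It was 0.81 for ob/ob against WT, where 4 were higher and 0 lower, beside 0.595% higher. For NDGA in ob/ob the 12 markers had a median of 0.08, with 2 of the 15 at least 2-fold higher beside 3.76%, whereas Alox5ap was at -0.50; on the deposited values the medians were 0.94 for the markers and 0.40 for Alox5ap. In whole liver, fewer cells of a type and less RNA per cell cannot be told apart.

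The summed normalized intensity of the 15 markers was 6459 on WT high-fat NDGA, 12144 on WT high-fat diet, 14165 on ob/ob chow with NDGA, 15658 on ob/ob chow and 7740 on WT chow. The 3 arrays of obese mice other than WT high-fat NDGA had the higher sums. Among the markers, Adgre1, which encodes F4/80, was at -1.07 for NDGA in WT and 1.09 for NDGA in ob/ob; Mpeg1 was at -1.46 and 1.03. The complement gene C1qb was at -1.15 and -0.35 and the complement receptor gene Vsig4, a Kupffer cell marker, at -0.48 and -0.66. After normalization single macrophage markers thus differed in sign with NDGA in ob/ob. Without normalization those ob/ob values were all above 0, at 1.84 for Adgre1, 1.87 for Mpeg1, 0.64 for C1qb and 0.35 for Vsig4, so this split, like the sign of Alox5ap there, depends on the scaling. The part of macrophage number in the Alox5ap values was not tested.

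**Figure D3:**
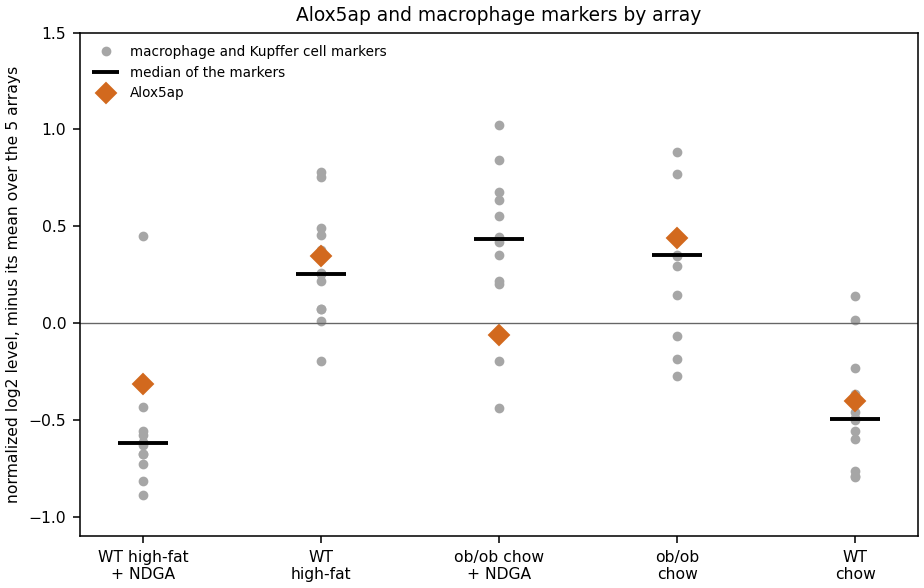
Normalized log2 level minus its own mean over the 5 arrays, for Alox5ap (diamonds) and the 12 macrophage and Kupffer cell markers above the median gene (grey points, with their median as a bar), on 1 array per group. Alox5ap lies near the marker median on WT high-fat diet, ob/ob chow and WT chow, above it on WT high-fat NDGA, and below it on ob/ob chow with NDGA.

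Markers of other cells known to express members were mostly near background. All 6 mast cell markers and all 3 eosinophil markers on the array were near background on all 5 arrays, and of 8 neutrophil markers 6 or 7 were, depending on the array. Of 5 platelet markers, 3 to 5 were near background. The neutrophil and platelet lists had summed normalized intensities of 1160 to 1470 and 782 to 887 over the 5 arrays, the neutrophil list highest on ob/ob chow and the platelet list highest on WT high-fat NDGA. The 5 neutrophil markers above the median gene had medians of -0.30 with high-fat feeding, 0.29 with NDGA in WT and 0.06 for ob/ob. Of these 5, 2 were above 0 and 3 below with high-fat feeding, and 3 above and 2 below with NDGA in WT. The 4 platelet markers above the median gene had medians of -0.30, 0.32 and 0.09. Olfactory receptor probes with a normalized intensity of 100 to 500 had medians of -0.29, 0.44 and 0.06 in the same comparisons. The part of such a shift in these lists was not tested. S100a8, a neutrophil and monocyte gene, lay apart from the medians of its list, at 1.30, -0.99 and 1.39, on a probe near background on all 5 arrays. Retnlg, also on that list, had the same signs, at 0.17, -0.23 and 0.03. Of the platelet markers, Ppbp (0.81, -0.28 and 0.57) and Pf4 (0.93, -0.88 and 0.13) lay apart from the medians. Ppbp was near background on all arrays but WT high-fat diet, and Pf4 on all 5. The other platelet markers lay below 0 with high-fat feeding and above 0 with NDGA in WT. The 6 stellate cell markers above the median gene had medians of the same signs as the macrophage markers, at 1.35 with high-fat feeding, -0.94 with NDGA in WT and 1.28 for ob/ob. The collagen gene Col1a2 was at 2.39, -1.46 and 1.57. With NDGA in WT, however, the actin gene Acta2 (0.89) and the desmin gene Des (0.48) lay above 0. As the mean of its 4 probes Acta2 was at 0.17 there. The 5 sinusoidal endothelial markers above the median gene had medians of 0.19, -0.18 and 0.38 in the same comparisons; 3 of 5 were above 0 with high-fat feeding, 0 of 5 with NDGA in WT and 5 of 5 for ob/ob. Lyve1, a hyaluronan receptor gene among them, was at 0.89, -0.93 and 1.21. Skeletal muscle markers were higher on the WT high-fat NDGA array than on WT high-fat diet. The 7 above the median gene had a median of 2.95, and 8 of all 10 were at least 2-fold higher, beside 0.493% of all named genes. For NDGA in ob/ob the median of the 7 was 1.59, or 0.97 over all 10. There 6 of the 7 were above 0 and 1 below, and 5 of the 10 were at least 2-fold higher, beside 3.76%. The part of these markers in the members' values was not tested.

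The wider pathway was read from 53 further genes of arachidonic acid metabolism in 7 groups; 51 were named on the array and 25 were above the median gene. None of the 51 was 2-fold apart with the high-fat diet or with NDGA in WT, beside 1.86% and 1.32% of all named genes. At these shares, a count of 0 among 51 says little about the pathway. In ob/ob against WT, 2 were higher (Mgst3 and Abcc4, beside 0.595% of all named genes) and 1 lower (Cyp4f14, beside 0.986%). With NDGA in ob/ob, 0 were higher and 2 lower (Cyp4f14 and Ptger1, beside 0.289%). Without normalization this turned round, with 5 higher (Pla2g6, Mgst3, Cbr1, Ptgr2 and Abcc4) and 0 lower. Beside them, 2678 of the 8319 genes above the median gene were then higher and 5 lower. No direction is given for the pathway with NDGA in ob/ob. The medians of the 25 genes were 0.20 for NDGA in WT, -0.26 for NDGA in ob/ob, -0.10 for high-fat diet and 0.15 for ob/ob against WT. Beside them all genes above the median gene had -0.03, -0.09, -0.01 and 0.04 in the same order of comparisons, and without normalization the medians of the 25 were 0.15, 0.48, -0.11 and -0.08.

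Phospholipases A2 free the arachidonic acid. Of 13 phospholipase A2 genes, 7 were above the median gene. Past 2-fold were 0 of the 13 in any comparison, beside 1.32% to 4.05% of all named genes. Pla2g12a, a secreted phospholipase, was at 0.76 for NDGA in WT, with 3333 on WT high-fat NDGA against 1947 on WT high-fat diet; as the mean of its probes the difference was 0.53. Pla2g4b, a cytosolic phospholipase, was at 0.45 for NDGA in WT, -0.77 for NDGA in ob/ob and -0.60 for high-fat diet. Pla2g4a, the phospholipase that chiefly feeds leukotriene synthesis in leukocytes, was within background, with intensities of 2.91 to 8.32 over the 5 arrays. Of the 4 other lipoxygenase genes only Aloxe3, a skin lipoxygenase, was above the median gene. None of the 4 was 2-fold apart in any comparison, beside the same shares of all named genes.

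Among the other leukotriene enzymes, Cyp4f14 and Mgst3 were past 2-fold in a comparison. Cyp4f14, which encodes a mouse hydroxylase that inactivates leukotriene B4, read 11675 on WT high-fat NDGA, 12762 on WT high-fat diet, 8512 on ob/ob chow with NDGA, 9092 on ob/ob chow and 23347 on WT chow. It was highest on WT chow and lower on all 4 arrays of obese or NDGA-fed mice, at -0.94 for high-fat diet and -1.05 for ob/ob; NDGA gave 0.06 in WT and -1.16 in ob/ob, and that ob/ob value was -0.09 without normalization. Cyp4f18, another leukotriene B4 hydroxylase, was at -0.27 for high-fat diet, -0.31 for ob/ob and -0.64 for NDGA in ob/ob, where it was 0.17 without normalization. Mgst3, a microsomal glutathione transferase related to Ltc4s, read 4080 on WT high-fat NDGA, 3669 on WT high-fat diet, 10594 on ob/ob chow with NDGA, 4908 on ob/ob chow and 2236 on WT chow. It was higher by 1.43 in ob/ob against WT and by 0.68 on high-fat diet, or by 0.86 and 0.49 as the mean of its 3 probes. Ltc4s itself did not share this pattern, at -0.13 and -0.19.

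Among the prostanoid genes, Tbxas1, the thromboxane synthase, read 110 on WT high-fat NDGA, 188 on WT high-fat diet, 320 on ob/ob chow with NDGA, 231 on ob/ob chow and 135 on WT chow. Its differences were -0.69 for NDGA in WT, -0.32 for NDGA in ob/ob, 0.39 for high-fat diet and 0.79 for ob/ob against WT, the same 4 signs as Alox5ap; it was above background only on the 2 ob/ob arrays, and the ob/ob NDGA value was 0.40 without normalization. Ptgis, the prostacyclin synthase, was at -0.60 for NDGA in WT and 0.37 for high-fat diet, on a probe near background throughout. Cbr1, a carbonyl reductase that can convert prostaglandin E2, was at 0.86 for ob/ob and 0.38 for NDGA in ob/ob, and was above background on the 2 ob/ob arrays only.

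Of the genes that clear or sense prostanoids, Abcc4, an exporter of prostaglandins and other organic anions, read 47.9 on WT high-fat NDGA, 61.5 on WT high-fat diet, 673 on ob/ob chow with NDGA, 170 on ob/ob chow and 44.5 on WT chow. It was higher by 1.35 in ob/ob against WT and by 0.97 with NDGA in ob/ob, where it was 1.72 without normalization, 1.26 with median centring and 1.16 after loess, and was near background on all arrays but ob/ob chow with NDGA. Hpgd, which starts prostaglandin breakdown, was at -0.73 for high-fat diet, or -0.24 over both probes, and was near background on all 5 arrays. Ptger1, a prostaglandin E receptor gene, read 3333 on WT high-fat NDGA, 1916 on WT high-fat diet, 1846 on ob/ob chow with NDGA, 2077 on ob/ob chow and 2105 on WT chow. It was at 0.78 for NDGA in WT and -1.09 for NDGA in ob/ob, or -0.17 there without normalization. Tbxa2r, the thromboxane receptor gene, was at 0.39 and -0.69 in the same comparisons, with 0.23 for NDGA in ob/ob without normalization. Of the 9 prostanoid receptor genes, 6 were below the median gene.

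**Figure D4:**
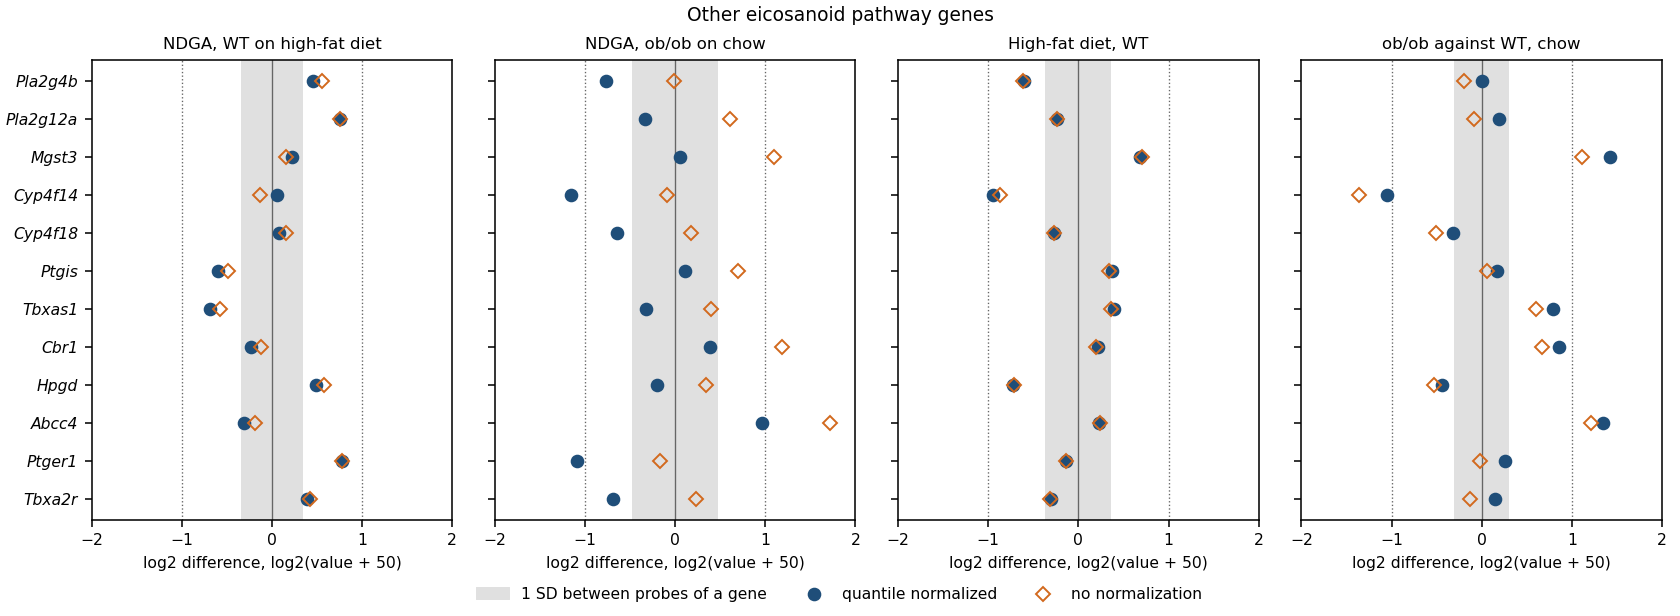
Log2 differences, on the log2(value + 50) scale, of the 12 further pathway genes above the median gene that differed by at least 0.58 in a comparison, after quantile normalization (filled) and on the deposited values (open diamonds); the grey band is 1 SD between probes of a gene and dotted lines mark 2-fold. Mgst3 and Abcc4 lie above 2-fold and Cyp4f14 below it for ob/ob against WT under both settings, and the settings part for NDGA in ob/ob.

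The genes with the most similar profile to a member were sought among the 8318 others above the median gene, as the root mean square difference of log2 levels centred over the 5 arrays. For Alox5ap the nearest were Olfml3 (0.04), Mcub (0.04) and Rcn3 (0.10), and 119 genes lay within 0.2. For Alox5 they were Pklr (0.02), Fbxl16 (0.02) and Zmynd15 (0.03), with 1501 genes within 0.2. For Cysltr1 they were Oaz2 (0.03), Plek (0.04) and Pdlim1 (0.04), with 2261 within 0.2. Fewer genes thus lay within 0.2 of Alox5ap than of Alox5 and Cysltr1, and with 5 arrays a close match is frequent. The normalized log2 level spanned 0.84 for Alox5ap, 0.77 for Alox5 and 0.64 for Cysltr1. A fixed distance can take in more genes around a flatter profile. The reason for the unlike counts was not tested, and they are not read as a measure of how widely a profile is shared.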

How the data were processed

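The deposited table holds 1 linear probe intensity per probe and array, for Cy5-labelled amplified RNA on Phalanx Mouse OneArray, per the labels' protocols; the sources used here name no scanner, background subtraction or scaling. Values ran from below 0 to above 65000, with 16 to 60 probes of each array at that limit. Their number of arrays, 1 per group, limits the precision. The platform table gave 1 symbol for 21020 of 29922 probes, several for 0 and none here for 8902; 17558 symbols were current in RefSeq (GRCm38.p6), 3410 were updated through a unique synonym and 52 kept. Each gene was read from its probe with the highest mean.

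Arrays were quantile normalized and log2(value + 50) taken, with Python 3.11.15, numpy 2.4.6 and pandas 2.3.3; loess used statsmodels 0.14.6 (span 0.3). A difference of 1 on that scale (2-fold) was counted. Steps were tested on simulated data. Members, gene lists, thresholds and alternatives were chosen with earlier results of these data known. The text names all members with every probe. Of the other pathway genes it names, beside a few singled out after their values were seen (Pla2g4a, Aloxe3, Pla2g6, Ptgr2), those above the median gene with a difference of at least 0.58. Of each marker list it names up to 4 genes, beside some singled out after their values were seen. These are S100a8, Retnlg, Ppbp, Pf4, Col1a2, Acta2, Des, Lyve1, Clec4f, Timd4, Apoa1 and Cps1. For members above the median gene that span at least 0.58 it names the 3 nearest profiles. Other settings tried were 9 for the differences, 2 for the background level and 1 chosen after seeing the data. No sequence of the probes or proteins was used here.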

Additional observations from a re-analysis of the deposited data

Results flagged for a closer look

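For 5 genes among the members and the other pathway genes above the median gene, the 2 NDGA comparisons had opposite signs. Each difference was larger than the SD between probes. The share of all named genes with such opposite signs is not given here. The count of 5 is therefore not read as a result about the pathway. With 1 array per group the contrast between the 2 comparisons was not tested. Alox5 was at 0.39 with NDGA in WT mice on the high-fat diet and -0.67 with NDGA in ob/ob mice on chow. Pla2g4b was at 0.45 and -0.77, Ptger1 at 0.78 and -1.09, and Tbxa2r at 0.39 and -0.69 in the same order. Ptgr2, a prostaglandin reductase gene, ran the other way, at -0.45 and 0.53. Without normalization the ob/ob values were 0.05 for Alox5, -0.01 for Pla2g4b, -0.17 for Ptger1, 0.23 for Tbxa2r and 1.29 for Ptgr2. Olfactory receptor probes with a normalized intensity of 100 to 500 had medians of 0.44 in WT and -0.38 in ob/ob; their part in these values was not tested.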

How the results depend on the processing

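No paired analysis was possible because each group has 1 array. No member was 2-fold apart under any alternative, except Ptgds (-1.03) with an offset of 16 for NDGA in ob/ob, a count of 1 in place of 0. For that comparison, 605 genes were 2-fold apart in the main setting, 2683 without normalization, 1244 with median centring, 934 after loess, 272 with an offset of 200 and 345 with the 75th percentile filter; the pathway count of 2, both lower (Cyp4f14 and Ptger1), became 5, 1 and 1 under the first 3 of these, all higher and other genes (Abcc4 in each). With an offset of 200 the counts were 157 in place of 290 for high-fat diet and 105 in place of 206 for NDGA in WT, where the 75th percentile filter gave 133. The split of higher and lower genes for high-fat diet was 177 and 113, or 80 and 77 with the offset of 200. It was 76 and 130 for NDGA in WT, or 93 and 92 without normalization. For ob/ob it was 86 and 151, or 47 and 204 without normalization and 48 and 200 median centred. For NDGA in ob/ob it was 563 and 42 even after quantile normalization. There it was 2678 and 5 without normalization, 1238 and 6 median centred and 907 and 27 after loess. The lowering of counts by a larger offset or stricter filter follows from their construction; otherwise the cause was not tested. Of 40 member differences, 5 moved by more than the SD between probes without normalization and 1 with an offset of 16. Sign changes of Alox5 (0.05), Alox5ap (0.40), Alox12 (0.44), Ltc4s (0.50) and Cysltr1 (0.11) without normalization all fell in NDGA against none in ob/ob. Leaving out single replicates could not be run, since no group has a second array. Dim genes are limited by signal over background.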
